A study of Homo sapiens with 4 samples.

Results

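IL24 and its relatives in the IL-10 cytokine cluster were followed across 4 RNA sequencing libraries of SUM159 cells. The group comprised 7 genes of the 60279 in the count tables: the 4 ligand genes IL24, IL20, IL19 and IL10, which lie side by side on chromosome 1, and the 3 receptor chain genes IL20RA, IL20RB and IL22RA1, through which IL24 signals. The genes were chosen by name, with the IL24 counts in these same libraries already known, so the IL24 differences are given as a description and carry no test. SUM159 is an established triple-negative breast cancer (TNBC) cell line, and all libraries came from this line grown in medium with insulin and hydrocortisone. One library was untreated, and the others came from cells given palbociclib, indisulam or the combination, with 1 library per condition. Palbociclib inhibits the kinases CDK4 and CDK6, which drive entry into the cell cycle. Indisulam is a sulfonamide that brings the splicing factor RBM39 to the DCAF15 ubiquitin ligase, which leads to loss of RBM39. The sample labels give 0.5 µM palbociclib and 2 µM indisulam for 10 days, whereas the text on the series gives 2 µM and 3 µM for 16 h in technical duplicates. Both schedules appear in the study as separate RNA sequencing experiments on SUM159 cells, each described as done in duplicate. The submitters' processing notes name the aligner TopHat2, whereas the study methods name HISAT2 for the shorter treatment, made to study splicing. The sample labels were followed here, and whether duplicates were pooled into 1 library is not given in the sources used here.

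The IL-10 family is a group of secreted helical cytokines that signal through paired receptor chains, the JAK1 and TYK2 kinases and, mainly, the transcription factor STAT3. IL24 and IL20 bind the pair IL20RA with IL20RB and also the pair IL22RA1 with IL20RB, while IL19 uses the first pair alone. IL10, which dampens inflammation, uses the other pair IL10RA with IL10RB. IL24 is made by activated immune cells and keratinocytes, and when forced to high levels in tumour cells it is known for ER stress and growth arrest.

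The libraries held 12555908 (untreated), 12691481 (palbociclib), 16712174 (indisulam) and 14359529 (combination) reads in genes. Levels are given as reads and as CPM, the usual scale for the reads of a gene as a part of all reads in genes of that library, with exact 95% Poisson intervals. Folds and log2 ratios compare 2 libraries, and their 95% intervals, like the Poisson ones, cover counting error only. This is because sequenced reads are not independent molecules and there was no replicate of any condition. Folds are ratios of CPM without a pseudocount. Log2 ratios were taken after a pseudocount of 1 was added, so they are smaller in size than the folds where reads are few. The intervals of both leave the pseudocount out. The 14269 genes with a mean of at least 1 CPM are referred to as tested, and a tested gene is called if it differed 2-fold or more and the interval of its ratio did not reach 1. Only 3 of the 7 genes reached that mean, namely IL24, IL20RB and IL22RA1, and IL24 did so only through the libraries with indisulam. The mesenchymal genes VIM, CD44, AXL and ZEB1 were all at or above 1 CPM in every library, with a sum of 3819 to 5890 CPM. Of the 5 luminal and epithelial genes, ERBB2 held most of the summed 112 to 145 CPM, whereas ESR1 stayed between 4 and 16 reads and PGR at or below 3 reads. Of the blood cell genes, CD3E and MS4A1 had 0 reads in every library, and the list summed to between 23.7 and 32.3 CPM, with its highest sum in the untreated library. PTPRC, the gene of the leukocyte protein CD45, had 12.2 CPM untreated, 12.5 with palbociclib, 17.5 under indisulam and 11.1 in the combination, and was thus highest in the library with the most IL24. CD14 ranged from 3.95 to 9.24 CPM and was highest without treatment. NCAM1 had 10.8 CPM untreated, 5.75 with palbociclib, 4.19 under indisulam and 10.5 in the combination. Among the keratinocyte genes KRT1 had 0 reads throughout, and the list summed to 26.6 to 35.2 CPM, nearly all of it KRT10. KRT14, a keratin of basal cells, had 2 reads untreated, 6 with palbociclib, 5 under indisulam and 32 in the combination. The part of other cell types in the IL24 reads was not tested. In bulk RNA, a change in the number of cells making a transcript and a change in the amount per cell cannot be told apart.

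On GRCh38 (GENCODE 44), the cluster spans 136.538 kb of chromosome 1. IL10 (ENSG00000136634) lies at 206767602 to 206774541 on the minus strand, and IL19 (ENSG00000142224) at 206770764 to 206842981 on the plus strand. These genes overlap on opposite strands and share 172 exon bases. IL20 (ENSG00000162891) lies at 206865623 to 206869223 and IL24 (ENSG00000162892) at 206897443 to 206904139, both on the plus strand. The 3′ end of IL24 runs against the 3′ end of FCMR, the gene for an Fc receptor of IgM, with 823 shared exon bases on opposite strands. The receptor chain genes are elsewhere: IL20RA (ENSG00000016402) on chromosome 6 at 136999971 to 137045180, IL20RB (ENSG00000174564) on chromosome 3 at 136946230 to 137011085, and IL22RA1 (ENSG00000142677) on chromosome 1 at 24119771 to 24143140.

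Sequences upstream of a RefSeq start of IL24 and of IL20 are shown because these were the ligand genes with the most reads in the indisulam library. Each line gives the 250 bases before a RefSeq start on GRCh38.p14, plus strand, 5′ to 3′, for IL24 at chr1:206897193-206897442 and for the first of 2 IL20 starts at chr1:206863315-206863564. This IL20 start lies ahead of the GENCODE gene start at 206865623 given above. The window of the other IL20 start, chr1:206865373-206865622, ends just before that gene start, held no searched motif and is not shown. Capitals mark the exact letters TATAAA, the only form of the TATA box searched. No other searched motif was found in the windows shown. The tatatat run near the end of the IL24 window differs from these letters and is not marked. Whether it acts as a TATA box was not tested.
IL24: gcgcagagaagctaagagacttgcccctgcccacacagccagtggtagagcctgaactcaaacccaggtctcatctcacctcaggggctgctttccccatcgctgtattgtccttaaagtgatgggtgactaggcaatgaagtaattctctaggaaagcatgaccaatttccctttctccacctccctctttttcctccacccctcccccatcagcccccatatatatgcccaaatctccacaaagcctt
IL20: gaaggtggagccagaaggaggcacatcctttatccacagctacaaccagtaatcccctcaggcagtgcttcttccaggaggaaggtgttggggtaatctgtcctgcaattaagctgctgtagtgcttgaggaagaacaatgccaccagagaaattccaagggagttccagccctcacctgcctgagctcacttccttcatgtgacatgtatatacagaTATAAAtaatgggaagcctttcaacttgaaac
A script searched both strands of 12 such windows of the 7 genes for AP-1 (TGANTCA), STAT (TTCNNNGAA), C/EBP (TTGCNNAA), the TATA box and NF-kB (a degenerate 10-letter motif, named only). Of all 35116 RefSeq windows of this length, 6.57% held the AP-1 letters, 6.57% the STAT letters, 9.05% the C/EBP letters, 10.7% the TATA box and 5.21% the NF-kB motif. Among the 12 windows, 3 held AP-1, 3 a TATA box, and 1 each STAT, C/EBP and NF-kB. The TATA box of the IL20 window shown lay 32 to 27 bases before that RefSeq start, not before the GENCODE gene start. The IL10 and IL19 windows with an AP-1 match overlapped and shared the same letters, at 206770666 to 206770672, so these are 1 place on the chromosome. The STAT match was in the second IL19 window, and the IL22RA1 window held AP-1, NF-kB and C/EBP matches. A match describes letters in a window and is no evidence of binding.

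IL24 was nearly silent without indisulam and was the most abundant ligand transcript of the cluster with it. It had 2 reads in the untreated library (0.159 CPM) and 1 read in the palbociclib library (0.0788 CPM). With indisulam it reached 805 reads, or 48.2 CPM (44.9 to 51.6). In the combination it had 217 reads, or 15.1 CPM (13.2 to 17.3). The levels thus ordered as indisulam, then combination, then untreated and palbociclib, and the last pair could not be separated at this depth.

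**Figure D1:**
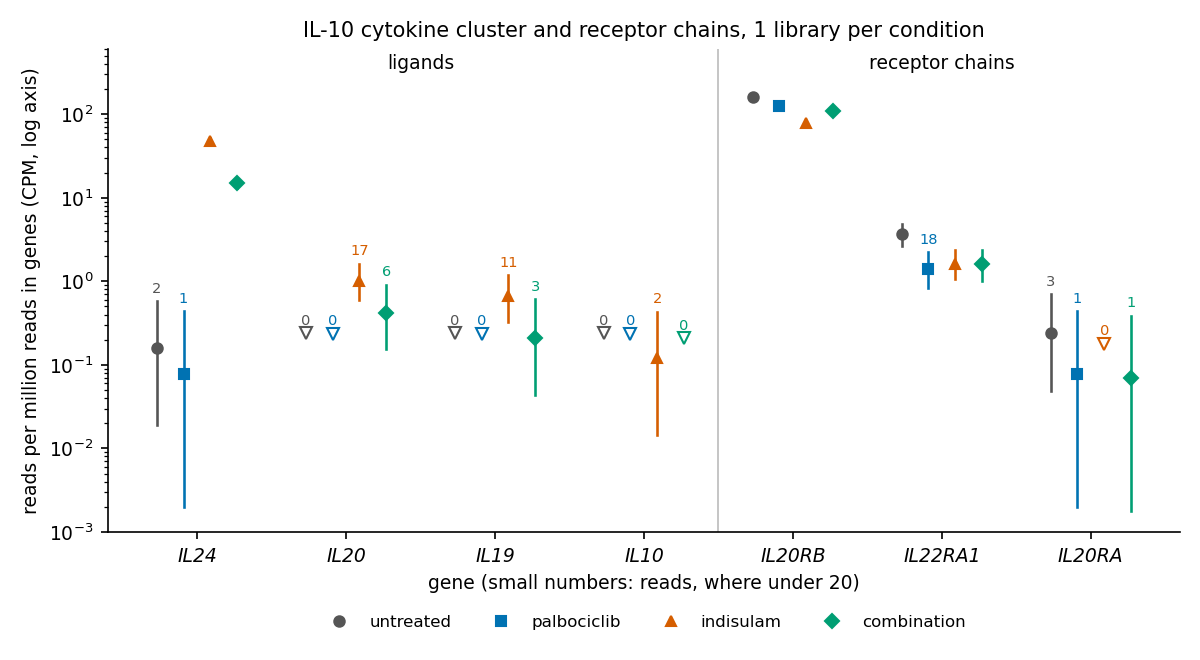
Level of the 4 ligand genes and the 3 receptor chain genes in the 4 libraries, in CPM on a log axis. Points are single libraries, bars are exact 95% Poisson intervals (counting error only), open triangles mark 0 reads and are drawn at the floor of 3 reads, and small numbers give reads where under 20. IL24, IL20 and IL19 were at 0 to 2 reads in the untreated and palbociclib libraries, while IL20RB stood between 78.4 and 163 CPM in all 4.

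Between indisulam and untreated, the IL24 CPM ratio was 302-fold (83.4 to 2501, or 6.38 to 11.29 on the log2 scale). With the pseudocount the log2 ratio was 7.71. This was the highest log2 ratio of the 14269 tested genes, of which 8.42% were called higher and 6.67% lower in that comparison. Between combination and untreated, IL24 was 94.9-fold higher by CPM (25.9 to 788). Its log2 ratio with the pseudocount, 6.04, ranked 22 from the top. There, 12.9% of tested genes were called higher and 10.5% lower. Because the lower library held 1 or 2 IL24 reads, the size of these folds is known only within those wide intervals.

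Adding indisulam to palbociclib gave 192-fold more IL24 by CPM (34.1 to 7610). The log2 ratio with the pseudocount was 6.66, the second highest of all tested genes, against 9.51% called higher and 7.36% called lower. This comparison and that of combination with untreated share the combination library, so they are not separate evidence. For palbociclib alone the log2 ratio was -0.62 (-6.90 to 3.25), from 1 against 2 reads, so no difference was detectable at this depth. In that comparison 5.84% of tested genes were called higher and 4.87% lower.

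The difference between the libraries with indisulam rested on many reads. IL24 was 3.19-fold (2.74 to 3.72) lower in the combination than with indisulam alone, a log2 ratio of -1.67 (-1.90 to -1.45). It ranked 83 from the lowest of the tested genes, of which 3.15% were called lower and 5.05% higher. The departure from additivity takes the log2 ratio of the combination over untreated and subtracts both single-drug log2 ratios from it, and for IL24 it was -1.05 (-3.09 to 0.99). Its interval included 0 but is approximate, as it rests on 2 untreated reads and 1 palbociclib read. With a pseudocount of 5 the departure was -1.40 and called. Of the tested genes 3.97% were called below and 4.16% above additivity.

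**Figure D2:**
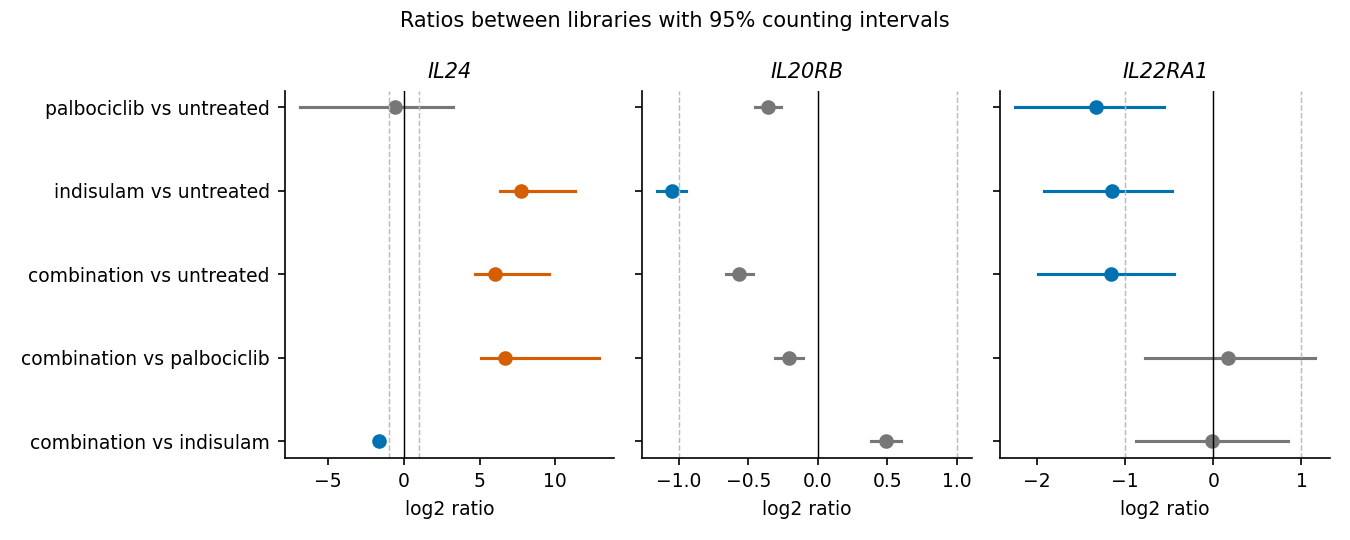
Log2 ratios of the 3 tested genes in the 5 comparisons between libraries, with 95% counting intervals; dashed lines mark 2-fold, orange is called higher, blue called lower and grey not called. Each panel has its own axis range. IL24 was 7.71 on the log2 scale for indisulam over untreated, whereas the IL20RB ratios stayed between -1.05 and 0.49.

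The other ligand genes appeared in the same libraries as IL24 but with few reads. IL20, a cytokine best known in skin, had 0 reads in the untreated and palbociclib libraries, 17 reads with indisulam (1.02 CPM, 0.593 to 1.63) and 6 in the combination (0.418 CPM, 0.153 to 0.909). With the untreated library set to a floor of 3 reads and the counted reads taken as exact, IL20 was at least 4.26-fold higher with indisulam and at least 1.75-fold higher in the combination. Against palbociclib the combination was at least 1.77-fold higher in the same way. When the counting error of both libraries was included, the exact intervals of these log2 ratios began lower, at 1.63, 0.042 and 0.057. The combination held 0.411 times (0.133 to 1.09) the IL20 level of indisulam alone, an interval that includes equality.

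IL19, a further ligand of the IL20RA and IL20RB pair, had 0 reads in the untreated and palbociclib libraries, 11 with indisulam (0.658 CPM, 0.329 to 1.18) and 3 in the combination (0.209 CPM, 0.0431 to 0.611). By the same floor it was at least 2.75-fold higher with indisulam than untreated, and the exact interval of that log2 ratio began at 0.92. The combination to indisulam ratio was 0.317 (0.0569 to 1.20), again with equality inside the interval. IL10, the founding member of the family, had 2 reads with indisulam and 0 in each of the other libraries. The floor of 3 reads is 0.239 CPM in the untreated library, 0.236 with palbociclib and 0.209 in the combination, so an IL10 difference was not detectable at this depth.

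IL24 took nearly all ligand reads of the cluster. Of 835 ligand reads in the indisulam library, 96.4% (exact binomial 95% interval, 94.9 to 97.6) were from IL24, 2.04% from IL20, 1.32% from IL19 and 0.240% from IL10. In the combination library the total was 226 reads, of which IL24 took 96.0% (92.6 to 98.2), IL20 2.65% and IL19 1.33%. Relative to 100 IL24 reads, IL20 had 2.11 reads with indisulam and 2.76 in the combination, and IL19 had 1.37 and 1.38. The intervals of these shares overlapped between the libraries with indisulam, but the IL20 and IL19 counts were too small to show a moderate shift. Per kilobase of exon, the levels in the indisulam library were 24.3 CPM per kb for IL24, 0.784 for IL20, 0.106 for IL19 and 0.0276 for IL10.

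The receptor chain shared by IL24, IL20 and IL19 was the abundant one. IL20RB had 2043 reads untreated (163 CPM, 156 to 169.9), 1609 with palbociclib (127 CPM, 121 to 133), 1311 with indisulam (78.4 CPM, 74.3 to 82.8) and 1580 in the combination (110.0 CPM, 105 to 115.6). The order was untreated, palbociclib, combination and indisulam, and each neighbouring pair differed by more than counting error. Indisulam against untreated was the sole comparison in which it was called, lower by a log2 ratio of -1.05 (-1.15 to -0.95), just past the 2-fold limit. It ranked 877 from the lowest of the tested genes there, of which 6.67% were called lower. Combination against untreated gave -0.56 (-0.66 to -0.47) and palbociclib against untreated -0.36 (-0.46 to -0.27).

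Palbociclib went with a lower IL20RB level in the absence of indisulam and a higher one in its presence. The ratio of combination to indisulam was 0.49 (0.38 to 0.59) on the log2 scale, against -0.36 without indisulam, and that of combination to palbociclib was -0.20 (-0.31 to -0.10). Its departure from additivity was 0.85 (0.71 to 0.99), short of the 2-fold limit. IL20RB shares 66 exon bases with NCK1 on the same strand and 37 with an antisense gene, IL20RB-AS1, and reads in shared bases may have been left out of its count as ambiguous.

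IL22RA1, the alternative partner of IL20RB for IL24 and IL20, was low in every library. It had 46 reads untreated (3.66 CPM, 2.68 to 4.89), 18 with palbociclib (1.42 CPM, 0.841 to 2.24), 27 with indisulam (1.62 CPM, 1.06 to 2.35) and 23 in the combination (1.60 CPM, 1.02 to 2.40). The untreated library was highest, and the 3 treated ones could not be told apart. It was called lower than untreated with palbociclib (log2 ratio -1.33, -2.24 to -0.55), with indisulam (-1.15, -1.92 to -0.47) and with the combination (-1.16, -1.98 to -0.44). Among all tested genes 4.87%, 6.67% and 10.5% were called lower in these comparisons. They share the untreated library, so a low or high count there moves all 3 of them. Combination against palbociclib was 0.17 (-0.78 to 1.15) and combination against indisulam -0.01 (-0.88 to 0.84). Its departure from additivity was 1.31 (0.24 to 2.39) and was called above additivity, beside 4.16% of all tested genes. Since the 3 treated libraries could not be told apart, this value also rests on the untreated count.

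IL20RA, the partner that IL19 requires, was close to absent. It had 3 reads untreated, 1 with palbociclib, 0 under indisulam and 1 in the combination, at most 0.239 CPM. Per kilobase of exon, the untreated library held 66.6 CPM per kb for IL20RB, 1.30 for IL22RA1 and 0.0505 for IL20RA. In the indisulam library, where IL24 was highest, the same measure was 32.11 for IL20RB, 0.574 for IL22RA1 and 0 for IL20RA.

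The remaining genes of the family added little. The other ligand genes IL22, IL26, IFNL1, IFNL2 and IFNL3 had 0 reads in all 4 libraries. Of the other receptor chains, IL10RB had 248, 193, 214 and 152 reads in the untreated, palbociclib, indisulam and combination libraries, and IFNLR1, the receptor chain of the lambda interferons, had 141, 138, 183 and 113. Neither was called in any of the 5 comparisons, with IL10RB at most 0.90 lower on the log2 scale, a ratio of -0.90 (-1.20 to -0.60) between combination and untreated. IL10RA, which IL10 requires, had 0, 0, 3 and 5 reads, and IL22RA2, a soluble binding protein for IL22, had 1 read in the combination alone. The medians over IL10RB and IFNLR1 were -0.33 for indisulam and -0.70 for the combination against untreated.

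Around the cluster, FCMR was the gene nearest to IL24. It had 15 reads untreated, 1 with palbociclib, 133 under indisulam and 82 in the combination. Against untreated, FCMR was called higher with indisulam, at a log2 ratio of 2.67 (1.96 to 3.61), and in the combination, at 2.19 (1.45 to 3.16). Against palbociclib the combination gave 5.27 (3.66 to 11.50), and palbociclib against untreated gave -3.08 (-9.32 to -1.22), each resting on the 1 read with palbociclib. FCMR is normally a gene of B cells. The B cell marker MS4A1 had 0 reads in every library, while the leukocyte gene PTPRC ran from 11.1 to 17.5 CPM, highest with indisulam. The part of blood cells in the FCMR reads was not tested.

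FCMR and IL24 reads did not keep 1 ratio. For every 100 IL24 reads there were 16.5 FCMR reads with indisulam and 37.8 in the combination, 2.29 times as many (1.72 to 3.03, with the IL24 ratio held fixed). FCMR itself was -0.47 (-0.89 to -0.07) on the log2 scale in the combination against indisulam, where IL24 was -1.67. The strand setting of the counting is not given in the sources used here, and without strand, reads in the 823 shared bases, of 1979 exon bases of IL24 and 3417 of FCMR, cannot be told apart. Such reads may have been left out of both counts as ambiguous.

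**Figure D3:**
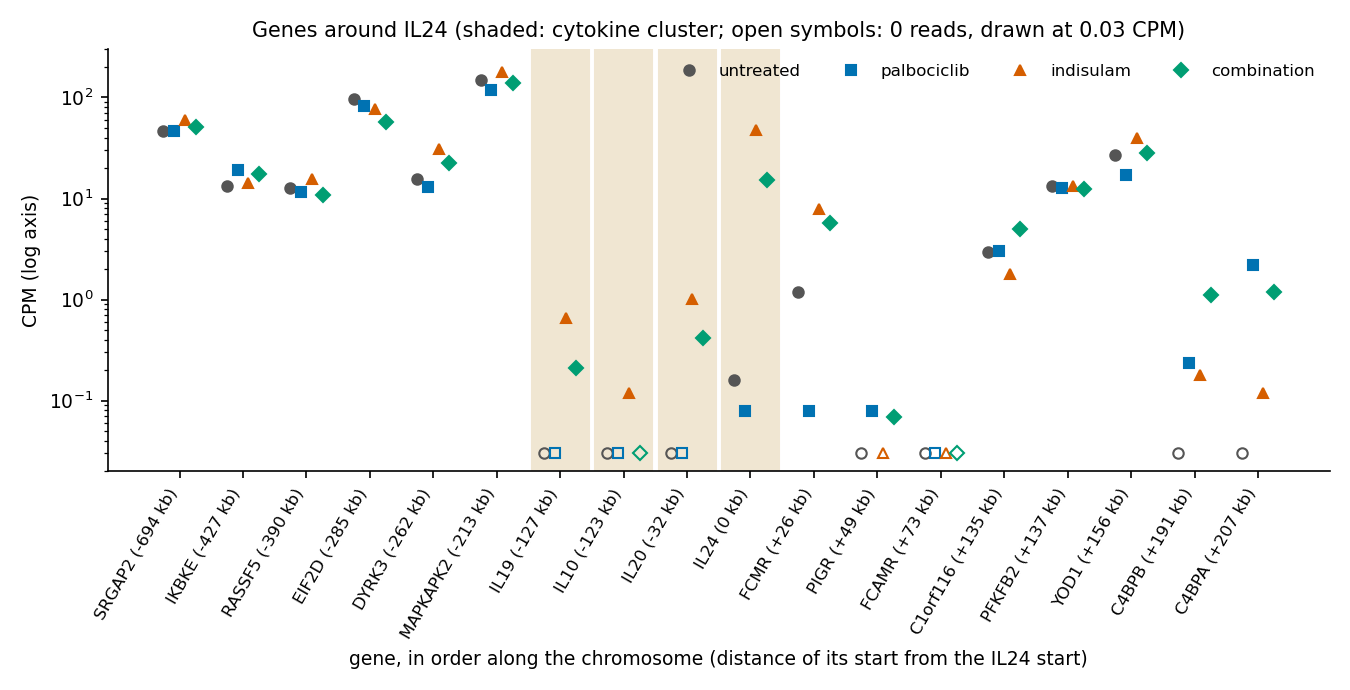
CPM (log axis) of the 4 cluster genes (shaded) and 14 neighbours in the 4 libraries, in order of their start sites, with the distance of each start from the IL24 start in kb. Open symbols are 0 reads, drawn at 0.03 CPM. On either side of the cluster MAPKAPK2 stood at 118 to 177 CPM and PFKFB2 at 12.4 to 13.3 CPM, while IL24 ran from 0.0788 to 48.2 CPM and FCMR from 0.0788 to 7.96 CPM.

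Of the 14 neighbours listed, 10 were tested, and FCMR alone was called for indisulam against untreated, a share close to the 8.42% higher and 6.67% lower among all tested genes. These 10 had a median of 0.26 on the log2 scale, and all tested genes one of 0.06. For the combination against untreated FCMR was again the one called, beside 12.9% higher and 10.5% lower among all tested genes. The median there was 0.10 against 0.05. For palbociclib against untreated FCMR was the one called lower, beside 4.87% of all tested genes, with a median of -0.18 against -0.02. Adding indisulam to palbociclib called FCMR higher, beside 9.51% of all tested genes, at a median of 0.20 against 0.07. In the combination against indisulam C1orf116, named in the annotation by its position only, was called higher at 1.43 (0.83 to 2.13). It had 71 against 30 reads. In that comparison 5.05% of all tested genes were called higher, and the median was -0.39 against -0.01. Above additivity were FCMR at 2.60 (0.92 to 4.29) and C1orf116 at 1.40 (0.53 to 2.28), beside 4.16% of all tested genes. The FCMR value again rests on the 1 read with palbociclib, and its interval is approximate at such a count.

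Further neighbours are named after their values were seen. DYRK3, a kinase gene ahead of the cluster, had 197 reads untreated and 517 with indisulam, a log2 ratio of 0.98 (0.74 to 1.22) that stayed just under 2-fold. MAPKAPK2, the gene of a stress kinase downstream of p38 next to the cluster, gave 0.24 (0.16 to 0.32) in the same comparison. C4BPA, which encodes the alpha chain of a complement inhibitor and was below the mean of 1 CPM, followed the other drug. It had 0 reads untreated, 28 with palbociclib, 2 under indisulam and 17 in the combination. By the floor of 3 reads the palbociclib library was at least 9.23-fold above the untreated one, and the exact interval of the log2 ratio began at 2.81.

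Downstream of the receptors, 11 tested JAK-STAT genes were described. STAT3, named after its values were seen, had 247 CPM untreated, 244 with palbociclib, 226 under indisulam and 196 in the combination, and was not called in any comparison. For indisulam against untreated 2 of the 11 genes were called higher and 1 lower, beside 8.42% and 6.67% of all tested genes, with a median of -0.13 against 0.06. JAK2, a kinase of many cytokine receptors, was higher, with 26.1 CPM untreated, 67.4 with indisulam and a log2 ratio of 1.36 (1.19 to 1.55). SOCS1, a feedback inhibitor of JAK kinases, was at 1.00 (0.50 to 1.56), at the 2-fold limit, and was no longer called with TMM scaling, at 0.93. For the combination against untreated 3 of the 11 were called lower, beside 10.5% of all tested genes, at a median of -0.34 against 0.05.

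The feedback inhibitors CISH, SOCS3 and SOCS2 were lowest in the combination. CISH, an inhibitor induced by STAT5, had 24.9 CPM untreated, 18.7 with palbociclib, 8.08 under indisulam and 3.48 in the combination. It was called lower in every comparison except palbociclib against untreated, down to -2.81 (-3.30 to -2.41) for combination against untreated and -1.62 (-1.93 to -1.33) for indisulam against untreated. SOCS3, the feedback inhibitor induced by STAT3, had 91.5 CPM untreated, 53.2 with palbociclib, 51.5 under indisulam and 24.4 in the combination. In the combination SOCS3 had log2 ratios of -1.90 (-2.08 to -1.73) against untreated, -1.12 (-1.31 to -0.93) against palbociclib and -1.07 (-1.26 to -0.89) against indisulam, and was called lower each time. SOCS2, an inhibitor of growth hormone signalling, was called lower in the combination against untreated at -1.39 (-1.80 to -1.0005). Combination against palbociclib and against indisulam each had 2 genes called lower, CISH and SOCS3, beside 7.36% and 3.15% of all tested genes. The medians were -0.32 and -0.45. For palbociclib against untreated none was called, beside 5.84% higher and 4.87% lower among all tested genes, with a median of -0.17.

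**Figure D4:**
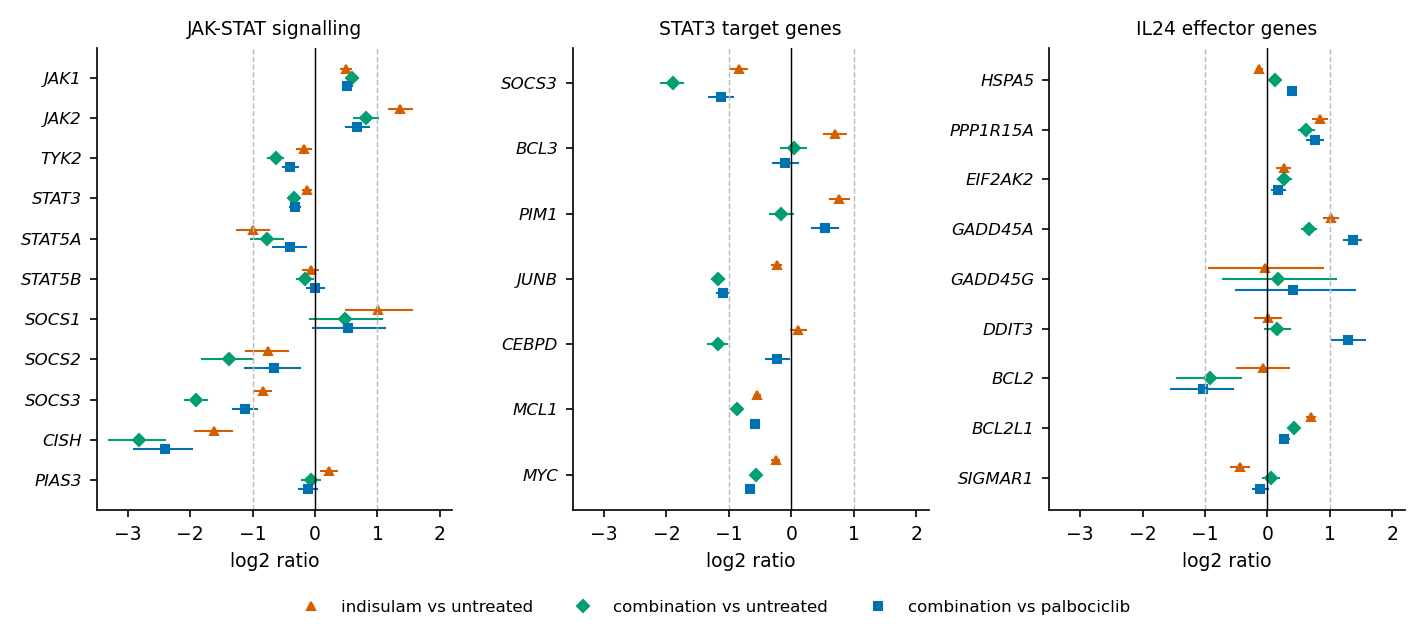
Log2 ratios with 95% counting intervals for 11 JAK-STAT genes, 7 STAT3 targets and 9 IL24 effector genes in the 3 comparisons with IL24 higher. Dashed lines mark 2-fold. SOCS3 and CISH lay below 0 in all 3 comparisons, and CISH reached -2.81 in the combination against untreated.

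Of 7 genes known as STAT3 targets, none was called for palbociclib or for indisulam against untreated. Beside that, 5.84% and 8.42% of all tested genes were called higher, and 4.87% and 6.67% lower. The medians of the 7 were -0.28 and -0.24. In the combination against untreated 3 were called lower and none higher, beside 10.5% and 12.9% of all tested genes, with a median of -0.86 against 0.05. Besides SOCS3 these were JUNB, an AP-1 subunit, at -1.18 (-1.27 to -1.08) and CEBPD, a C/EBP factor of the acute phase response, at -1.18 (-1.34 to -1.02). JUNB had 216 CPM untreated, 205 with palbociclib, 183 under indisulam and 95.5 in the combination. CEBPD had 77.6, 39.9, 83.9 and 34.3 CPM in the same order and so was low in the libraries with palbociclib. Against palbociclib the combination called SOCS3 and JUNB (-1.10) lower, beside 7.36% of all tested genes, at a median of -0.58. Against indisulam it called SOCS3 and CEBPD (-1.29) lower, beside 3.15% of all tested genes, at a median of -0.93. No gene of this list was called higher in any comparison. Some values for indisulam against untreated lay under the 2-fold limit in either direction and are named after they were seen. PIM1 was at 0.77 (0.62 to 0.93) and BCL3 at 0.70 (0.53 to 0.88), whereas SOCS3 was at -0.83, MCL1 at -0.54, MYC at -0.25 and JUNB at -0.24.

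Of 9 genes tied to IL24 action in tumour cells through ER stress and growth arrest, 1 was called higher for indisulam against untreated, a share close to the 8.42% of all tested genes. GADD45A, a growth arrest gene, had 75.0 CPM untreated, 46.2 with palbociclib, 152 under indisulam and 119 in the combination. GADD45A was called higher for indisulam against untreated, at 1.02 (0.91 to 1.13), and for combination against palbociclib, at 1.36 (1.23 to 1.503), where the list medians were 0.01 and 0.40. With TMM scaling it was at 0.95 for indisulam against untreated and was not called, and the list median there was -0.063. DDIT3, the ER stress factor CHOP, had 27.6 CPM untreated, 12.6 with palbociclib, 27.8 under indisulam and 30.9 in the combination. It was called lower with palbociclib, at -1.13 (-1.41 to -0.86), and higher in the combination against palbociclib, at 1.29 (1.03 to 1.56), but was at 0.01 (-0.19 to 0.22) for indisulam against untreated. BCL2, a survival gene, was called lower in the combination against palbociclib, at -1.02 (-1.54 to -0.54), but not with a pseudocount of 5, at -0.97. In that comparison 9.51% of all tested genes were called higher and 7.36% lower. None of the 9 was called in the combination against untreated or against indisulam, with medians of 0.18 and 0.01. Among all tested genes 12.9% and 5.05% were called higher there, and 10.5% and 3.15% lower. DDIT3 was above additivity at 1.28 (0.95 to 1.61). None of the 11 JAK-STAT genes or the 7 STAT3 targets departed from additivity by the call, beside 4.16% above and 3.97% below among all tested genes.

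The 5 genes with the profile nearest to that of IL24 were found by the Euclidean distance between log2 levels centred over the 4 libraries. SPINK1, a secreted trypsin inhibitor, was nearest at a distance of 1.99, with 0, 0, 58 and 47 reads in the untreated, palbociclib, indisulam and combination libraries. KRT17, a keratin of basal and wounded epithelium, followed at 2.53 with 15, 20, 820 and 1177 reads. ENSG00000278266, a gene without a symbol in the annotation used, was at 2.56 with 44, 15, 1226 and 713 reads. CCL20, a chemokine for CCR6-bearing lymphocytes, was at 2.63 with 4, 2, 148 and 101 reads. KRT34, a hair keratin, was at 2.74 with 8, 2, 209 and 469 reads. All 5 were high in both libraries with indisulam, and KRT17 and KRT34 were higher in the combination than with indisulam alone, unlike IL24. None of them lies on chromosome 1, and with 4 libraries the measure mostly sorts genes by the gap between libraries with and without indisulam.

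**Figure D5:**
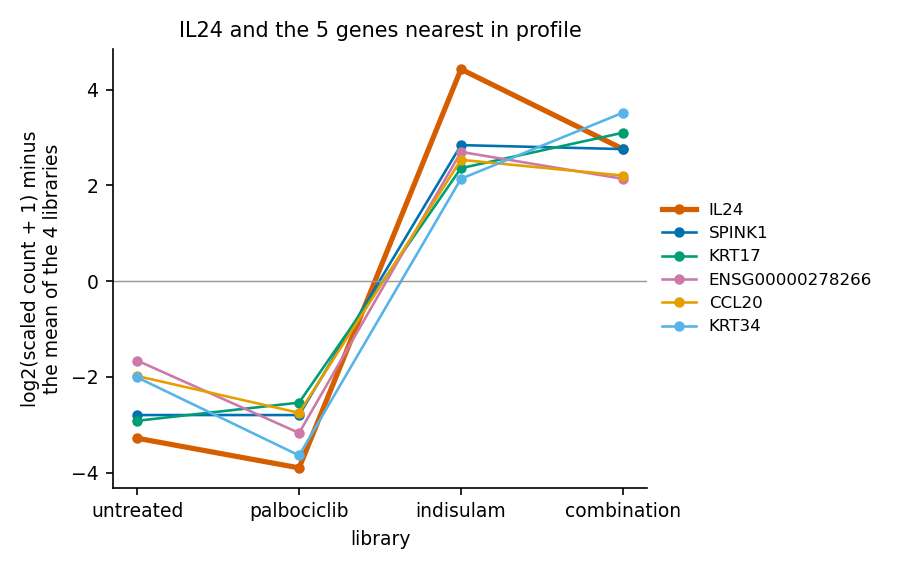
Log2(scaled count + 1) minus its mean over the 4 libraries for IL24 (thick line) and the 5 nearest genes, 1 point per library. The lines join unordered conditions to guide the eye. IL24 dropped from 4.43 with indisulam to 2.76 in the combination, whereas KRT34 went from 2.14 to 3.52.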

How the data were processed

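Libraries of SUM159 poly(A) RNA were made with a stranded kit, and the tables deposited by the authors hold raw read counts by Ensembl gene. Per the submitters' processing notes, TopHat2 2.1, HTSeq and GRCh38 were used. The strand setting and annotation release are not given in the sources used here. For RNA extraction the labels name Trizol and the study methods a silica column kit. Groups came from the treatment label, and 1 library per condition left no replicate, no test between conditions and no batch to check.

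Tallies of reads in no gene (0.615% to 0.694% of all rows), in more than 1 gene (2.41% to 2.63%) or aligned to more than 1 place (6.46% to 6.84%) were kept out of library sizes. Reads of genes with near-identical copies can thus be missing from the counts. Counts were scaled by gene totals to their mean of 14079773, a pseudocount of 1 was added, and log2 ratios were given exact conditional binomial intervals, or a delta-method interval for additivity (Python 3.11.15, scipy 1.17.1, R 4.3.3, edgeR 4.0.16 for TMM factors). A fold against 0 reads was computed at a floor of 3 reads, which was 0.180 to 0.239 CPM.

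The genes and lists were chosen with earlier results of these data known. By the naming rule, all 7 genes, up to 4 called genes per list by absolute log2 ratio and the 5 genes nearest to IL24 were named, and exceptions are marked where they occur. SOCS1 was also named after its values were seen. One gene of the JAK-STAT list is not reported here, and the counts and medians of that list leave it out. Exon lengths and positions came from GENCODE 44, which gave symbols for 14111 tested genes, and upstream sequences from RefSeq (GRCh38.p14), which held windows for all 7 genes. Alternatives were TMM, median-of-ratios and upper-quartile scaling, pseudocounts of 0.5 and 5, no filter or a mean of 5 CPM, calls at 1.5-fold or without the interval, and another measure of likeness.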

Additional observations from a re-analysis of the deposited data

Results flagged for a closer look

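The direction of the palbociclib ratio of IL20RB differed between the presence and absence of indisulam. The log2 ratio was -0.36 for palbociclib against untreated and 0.49 for combination against indisulam. It was flagged because the single pair of libraries without indisulam moved one way and the single pair with it moved the opposite way. The gap between these ratios is the departure from additivity, 0.85 (0.71 to 0.99), whose interval excludes 0 but covers counting error only. With 1 library per condition the difference was not tested against the spread between replicates.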

How the results depend on the processing

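No paired analysis was possible because there was 1 library per condition and the labels give no replicate numbers, and for the same reason no library could be left out in turn. For IL24, IL20RB and IL22RA1, all 90 alternative values kept their direction or stayed within the counting interval. The log2 ratio of IL24 for indisulam against untreated ranged from 6.56 to 7.95, that of IL20RB from -1.12 to -1.05 and that of IL22RA1 from -1.22 to -1.03. Among these 3 genes, the only call that differed was the IL24 departure from additivity, -1.40 and called below with a pseudocount of 5. Combination against indisulam for IL22RA1, -0.01 as reported and not called, ran from -0.03 to 0.02.

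Among the list genes, other scalings ended the calls of SOCS1 and GADD45A for indisulam against untreated and added STAT5A (-1.06 with TMM), named after its values were seen, and TMM added BCL2 (-1.01) for combination against untreated.

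The number of genes called depended on the filter. In the order palbociclib, indisulam and combination against untreated, combination against palbociclib, combination against indisulam and additivity, it was 1529, 2153, 3341, 2407, 1170 and 1161. A mean of 5 CPM gave 833, 1212, 2104, 1396, 544 and 583, and a 1.5-fold limit gave 3506, 4466, 6015, 4651, 3143 and 2745. With TMM scaling the split turned, from 1201 higher and 952 lower to 1054 and 1085 for indisulam against untreated, from 1841 and 1500 to 1612 and 1718 for combination against untreated, and from 1357 and 1050 to 1162 and 1237 for combination against palbociclib. Without a filter, combination against indisulam had 1929 and additivity 3624. Without a filter the median of the other receptor chains was -0.018 for indisulam against untreated, and for the combination 0.24 (over untreated), 0.26 (over palbociclib) and 0.23 (over indisulam), since IL10RA and IL22RA2 then entered with a few reads. The locus median for combination against untreated was then 0.39. Of the 5 genes nearest to IL24, 3 were kept with a mean of 5 CPM, 2 with a pseudocount of 5 and 0 with 1 minus Pearson's correlation. No scaling moved the median of all tested genes by 0.1 on the log2 scale. Depth limited IL10, IL19, IL20 and IL20RA, with 0 to 17 reads each.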
